A study of Mus musculus with 2 samples.

Results

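Genes of dopamine and biopterin metabolism were examined in mouse fibroblasts that had been cultured on gold nanoparticles (AuNPs) under an electromagnetic field (EMF), and in control fibroblasts. The genes are Gch1, Pts, Spr and Qdpr of the biopterin pathway, Th and Ddc of dopamine synthesis, the vesicular transporter gene Slc18a2, and the monoamine oxidase genes Maoa and Maob. They were taken by gene symbol from the platform annotation, which gave these 9 of 16593 named genes 12 probes in all, 2 each for Gch1, Pts and Maob and 1 for each of the others. Each condition was measured on 1 single-colour Illumina bead array, and AuNPs alone or EMF alone were not analysed here. By its title, the study concerns the direct conversion of cells into dopamine neurons. The labels used here do not say where the fibroblasts came from, what field was applied or for how long, and give neither strain nor age. Neither condition has a replicate, so no value carries a replicate error, no test between conditions was possible and precision is limited by the number of arrays.

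Dopamine is made from tyrosine in a pair of steps. Tyrosine hydroxylase, encoded by Th, makes L-DOPA and is the rate-limiting enzyme, and the aromatic amino acid decarboxylase encoded by Ddc turns L-DOPA into dopamine. The vesicular monoamine transporter encoded by Slc18a2 then loads dopamine into vesicles, and the mitochondrial enzymes encoded by Maoa and Maob oxidise it. Tyrosine hydroxylase needs tetrahydrobiopterin as a cofactor, which GTP cyclohydrolase I (Gch1), pyruvoyl-tetrahydropterin synthase (Pts) and sepiapterin reductase (Spr) make from GTP and which dihydropteridine reductase (Qdpr) regenerates. The same cofactor serves the nitric oxide synthases and the other aromatic amino acid hydroxylases, so cells that make no dopamine can also use the biopterin pathway.

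Promoter sequence from RefSeq (GRCm38.p6) is shown for Gch1, which had the largest increase of the 9 genes, and for Th and Slc18a2, which were not detected on either array and share a motif. Each window runs from 250 bases before to 50 after the start of the gene, on the strand of the gene. Capitals mark TGACGTCA, the consensus cAMP response element, its core TGACG where that stands alone, and CCAAT. Gch1 is at chr14:47189364-47189663 (minus strand), Th at chr7:142899946-142900245 (minus strand) and Slc18a2 at chr19:59260628-59260927 (plus strand).
Gch1: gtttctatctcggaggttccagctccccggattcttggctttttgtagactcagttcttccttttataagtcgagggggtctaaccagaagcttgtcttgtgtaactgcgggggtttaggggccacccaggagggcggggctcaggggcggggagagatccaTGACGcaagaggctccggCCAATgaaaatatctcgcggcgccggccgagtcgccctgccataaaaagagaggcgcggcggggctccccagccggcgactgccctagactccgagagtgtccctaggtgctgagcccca
Th: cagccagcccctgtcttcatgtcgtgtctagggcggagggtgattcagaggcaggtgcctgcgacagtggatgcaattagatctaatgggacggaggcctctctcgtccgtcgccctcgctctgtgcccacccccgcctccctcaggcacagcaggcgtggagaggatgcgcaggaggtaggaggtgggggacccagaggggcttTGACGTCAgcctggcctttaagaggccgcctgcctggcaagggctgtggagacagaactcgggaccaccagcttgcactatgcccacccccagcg
Slc18a2: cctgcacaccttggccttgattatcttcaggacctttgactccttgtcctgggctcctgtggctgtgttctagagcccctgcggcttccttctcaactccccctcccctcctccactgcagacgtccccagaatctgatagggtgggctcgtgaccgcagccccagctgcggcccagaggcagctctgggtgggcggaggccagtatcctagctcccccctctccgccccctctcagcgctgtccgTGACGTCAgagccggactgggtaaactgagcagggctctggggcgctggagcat
TGACGTCA was searched as these letters, which read the same on both strands, and was found in 1.79% of 32851 windows of this length in the RefSeq table. Among the 9 windows that the table holds for 8 of the genes, only those of Th and Slc18a2 contain it, starting at position -45 in Th and at position -4 in Slc18a2 from the start of the gene. The core TGACG, which overlaps it, was searched on both strands and stood alone in Gch1 at position -88 and in Maoa at position -209, and 20.8% of all windows hold it. CCAAT, on either strand, was found at position -70 in Gch1, on the opposite strand in Qdpr, and on the opposite strand in 1 of the 2 windows of Ddc, against 37.4% of all windows. GGGCGG, the GC box, was found on at least 1 strand in every gene with a window except Ddc, against 35.7% of all windows, and is not marked. A match describes the letters in the window, not a site that a factor binds. Base composition also differed between the windows. The 4 biopterin genes hold between 16 and 25 CG pairs and Th, Slc18a2 and Maoa between 12 and 15, while the 2 windows of Ddc hold 5 and 2 and the median of all windows is 7.

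Detection was judged by the deposited detection p, with 0.01 as the limit. The lowest detected intensity was 181 with EMF and AuNPs and 187 in control. The median intensity was 162 with EMF and AuNPs and 165 in control, and 46.6% of all probes were detected with EMF and AuNPs and 46.7% in control. By this limit 6 of the 9 genes were detected on both arrays, namely all 4 biopterin genes, Ddc and Maob, while Th, Slc18a2 and Maoa were detected on neither. Over all named genes, 52.1% were detected on at least 1 array. Of the 12 probes, 7 were detected on both arrays, 1 with EMF and AuNPs alone and 4 on neither. In RNA of a whole culture, fewer cells of a type and less RNA per cell cannot be told apart.

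**Figure D1:**
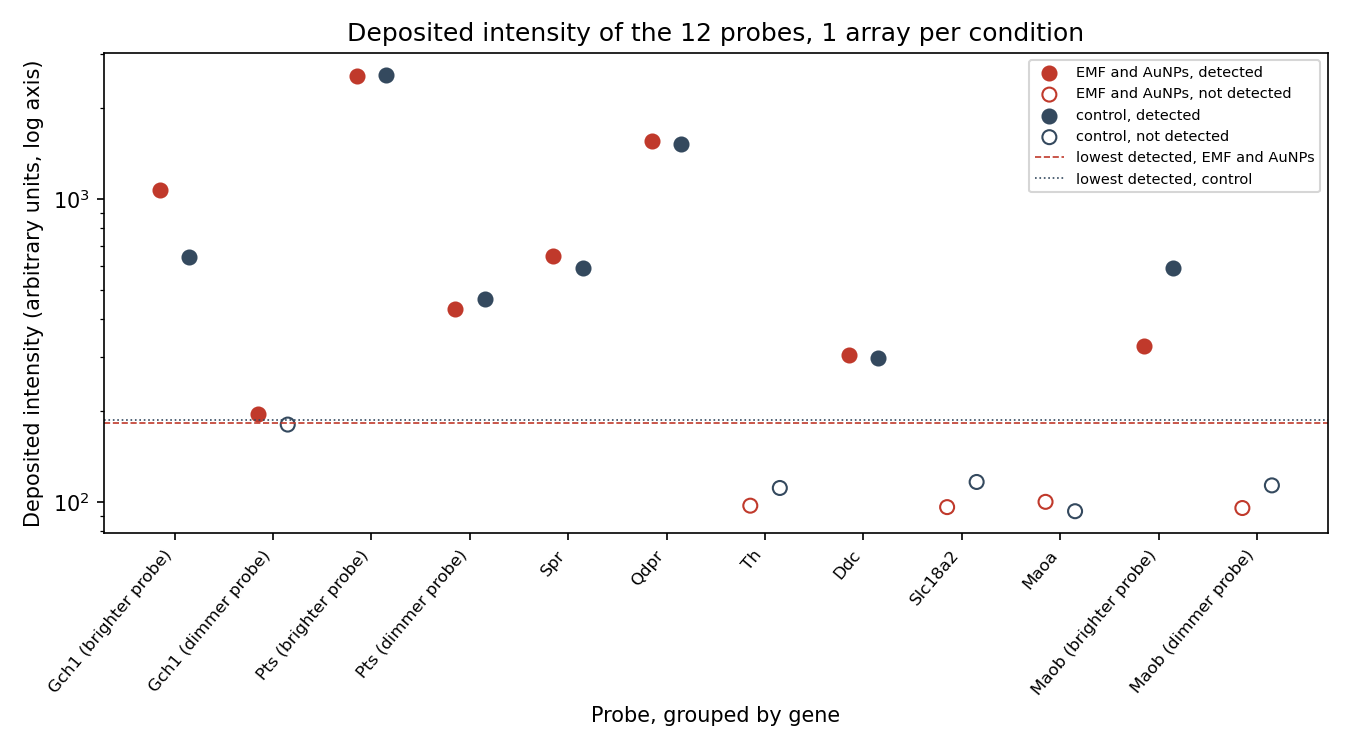
Deposited intensity (log axis, arbitrary units) of each of the 12 probes with EMF and AuNPs and in control, 1 array each. Filled points are detected at a detection p under 0.01, open points are not, and the lines mark the lowest detected intensity of each array. The 4 probes of Th, Slc18a2, Maoa and the dimmer Maob probe lie below these lines on both arrays.

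Of the 6 detected genes, Gch1 was higher and Maob lower with EMF and AuNPs by more than 1.5-fold, and the other 4 differed by less than 1.5-fold. The differences are on the log2 scale of background-corrected, quantile normalized signal, EMF and AuNPs minus control. Among all 8651 detected genes, 6.21% passed 1.5-fold in either direction, 3.32% upwards and 2.89% downwards. Without background correction, where Gch1 (0.81) and Maob (-0.76) still passed it, the share of all genes in either direction was 2.97%. None of the 6 passed 2-fold, which 1.01% of all detected genes did, although Maob passed it under 2 other normalizations (-1.03 with median centring and with cyclic loess). The median difference of the 6 genes was 0.14, beside 0.03 over all detected genes, and 5 of them lay above 0. Among these 5, Pts differed by 0.03, no more than the median of all genes, and its dimmer probe by -0.03. The share of all detected genes above 0 was not counted.

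**Figure D2:**
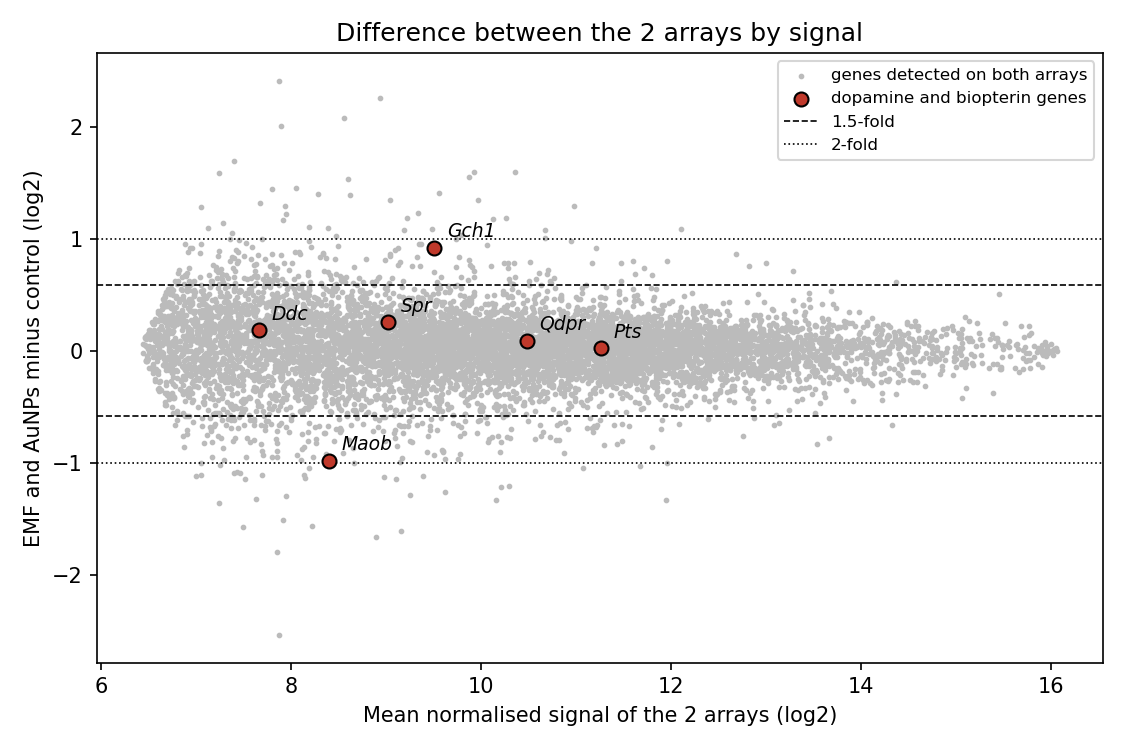
Difference between the arrays (EMF and AuNPs minus control, log2) against the mean normalised signal of the 2 arrays (log2). Grey points are the 8199 genes detected on both arrays, red points the 6 detected genes of dopamine and biopterin metabolism, and dashed and dotted lines mark 1.5-fold and 2-fold. Gch1 (0.92) lies above and Maob (-0.98) below the dashed lines, and the other 4 lie between them.

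The entry step of biopterin synthesis showed the largest increase. The brighter Gch1 probe, ILMN_2606295, had an intensity of 1071 with EMF and AuNPs and 643 in control, both with a detection p listed as 0. Its normalised signal was 9.97 with EMF and AuNPs and 9.04 in control, a difference of 0.92 or 1.90-fold. Gch1 ranked 55th from the top among the 8199 genes detected on both arrays. Of the 410 genes in its bin of like signal, 4 including Gch1 differed upwards by as much, and the robust SD of that bin (1.4826 times the median absolute deviation, which holds real change as well as noise) was 0.23. The dimmer probe, ILMN_2753029, lay at the edge of detection. It had an intensity of 194 (detection p 0.005) with EMF and AuNPs and 180 (detection p 0.013) in control, so that it was detected with EMF and AuNPs alone. When both probes were averaged, the mean was at least 0.58 with the dimmer one as a bound, slightly short of 1.5-fold as a bound, and 0.63 with the dimmer one at its own difference of 0.34, which is 1.55-fold. Gch1 passed 1.5-fold in the other 10 of 11 settings, which are not independent. The detection settings left its difference at 0.92, and the deposited values repeat those without background correction (0.81). Both probes read higher with EMF and AuNPs, but the size rests on 1 probe.

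The later steps of the pathway were nearly level. Pts, whose product forms the pyruvoyl intermediate, had intensities of 2535 with EMF and AuNPs and 2564 in control on its brighter probe, and 433 and 469 in the same order on the dimmer one. After normalization these probes differed by 0.03 and -0.03, on either side of 0. Spr, which catalyses the last reduction to tetrahydrobiopterin, had an intensity of 648 with EMF and AuNPs and 593 in control. Its difference of 0.26 did not exceed the robust SD of its bin, 0.27, and 88 of 410 such genes differed upwards by as much. Qdpr, the regenerating reductase, had 1546 with EMF and AuNPs and 1514 in control, a difference of 0.09 against a robust SD of 0.20. Of the 3 synthesis genes and the regeneration gene, only Gch1 passed 1.5-fold.

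The enzymes of dopamine synthesis gave little or no signal. Th had an intensity of 97.2 with EMF and AuNPs (detection p 0.86) and 111 in control (detection p 0.46). Both values lie below the lowest detected intensity of their array, so no fold is given. Ddc was detected on both arrays at low signal, with an intensity of 304 with EMF and AuNPs and 298 in control and a detection p of 0.0013 on each, the smallest value above 0 that the arrays list. Its normalised signal was 7.75 with EMF and AuNPs and 7.57 in control, a difference of 0.19 beside a robust SD of 0.38 in its bin. At a stricter detection p under 0.001, Ddc was detected on neither array. RefSeq gives Ddc 2 start sites on chromosome 11, and which of their transcripts its 1 probe reads was not examined. Slc18a2, which loads dopamine and other monoamines into vesicles, had an intensity of 96.1 (detection p 0.89) with EMF and AuNPs and 116 (detection p 0.34) in control and was not detected.

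Of the pair of monoamine oxidase genes, Maob was detected and Maoa was not. The brighter Maob probe, ILMN_2719069, had an intensity of 326 (detection p 0.0013) with EMF and AuNPs and 590 (detection p listed as 0) in control. Its normalised signal was 7.90 with EMF and AuNPs and 8.88 in control, a difference of -0.98, or 1.97-fold lower. It ranked 37th from the bottom of the 8199 genes detected on both arrays, and 4 of the 410 genes of like signal, Maob included, differed downwards by as much. The dimmer Maob probe, ILMN_1258219, read 95.4 with EMF and AuNPs and 113 in control and was detected on neither array, so it could not check the size. Under the settings tried, which are not independent, the difference of Maob ran from -1.03 to -0.76 and passed 1.5-fold in all 11. At a detection p under 0.001, Maob was detected in control alone, so its value there (-0.96) is a bound. Maoa, which oxidises serotonin and noradrenaline as well as dopamine, had an intensity of 100.04 with EMF and AuNPs and 93.2 in control, both below the lowest detected intensity. Maoa and Maob lie side by side on the X chromosome, and the probe of Maoa gave no measurable level to set beside the difference of Maob.

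**Figure D3:**
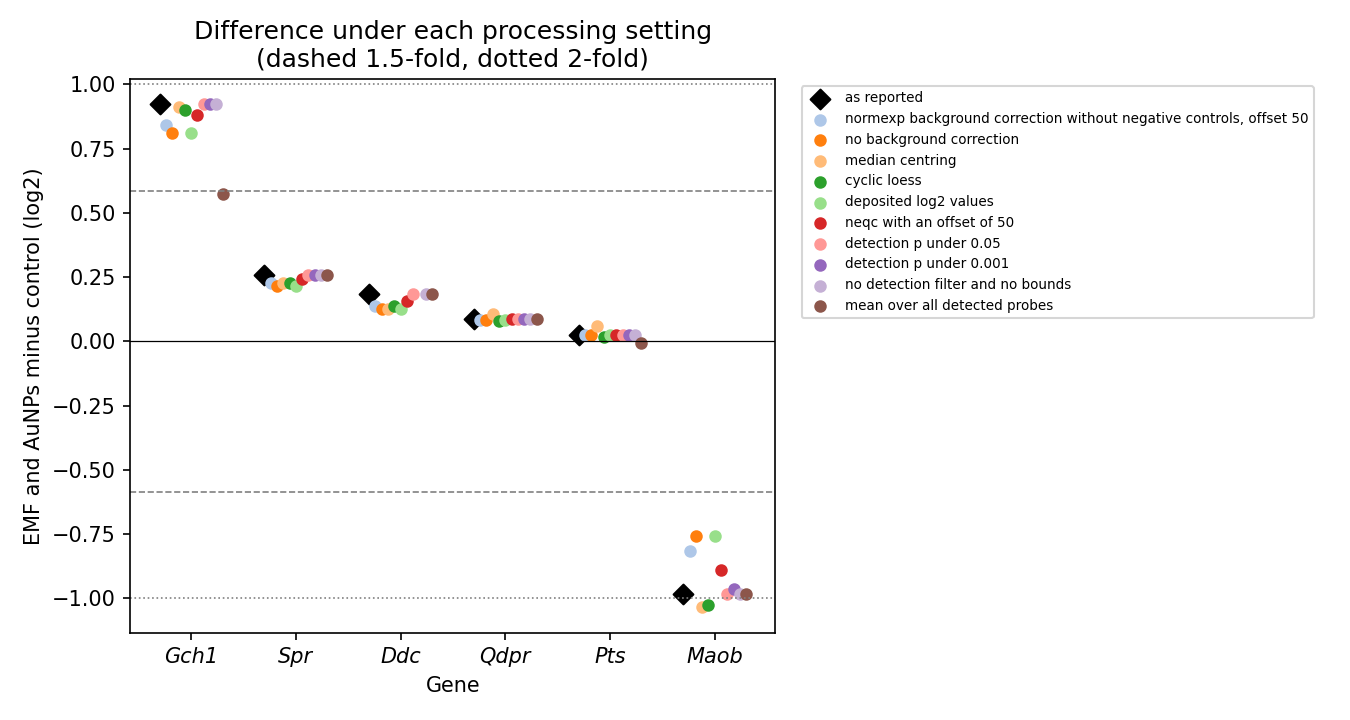
Difference of the 6 detected genes (EMF and AuNPs minus control, log2) as reported (black diamonds) and under the 10 alternative settings (coloured points); dashed lines mark 1.5-fold and dotted lines 2-fold. Gch1 stays above the upper dashed line except when its probes are averaged with the dimmer one as a bound (at least 0.58). Maob stays below the lower one, at a detection p under 0.001 as a bound.

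The agreement of probes over the whole array gives a measure for reading genes that rest on 1 probe. Of the genes past 1.5-fold by their brightest probe, 106 had a second probe detected on both arrays. That second probe had the same sign for 88 of them and passed 1.5-fold the same way for 49. Gch1 and Maob are not among the 106, because the dimmer probe of each was not detected on both arrays.

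Other genes of the pathways were taken from 9 lists of steps that hold 44 further genes, 36 with a named probe. Of these 36, 12 were detected on at least 1 array, beside 52.1% of all named genes. None of the 12 passed 1.5-fold, beside 6.21% of all detected genes, although Aldh1a1 and Pdxk each did under 2 other settings. The 9 that were detected on both arrays had measured differences from -0.39 to 0.29. The vesicle and plasma membrane transporters were not detected in any of 5 genes with a probe, including the dopamine transporter gene Slc6a3 (106 with EMF and AuNPs, 119 in control). The 5 dopamine receptor genes Drd1 to Drd5 were not detected either. Among synthesis genes beyond dopamine, Dbh, which makes noradrenaline, was not detected, with 113 with EMF and AuNPs and 102 in control. Pnmt, which makes adrenaline, was detected with EMF and AuNPs alone at an intensity of 192 against 165 in control, and its bound was at least 1.15-fold higher.

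No enzyme that uses tetrahydrobiopterin was detected among those with a probe, whereas the 3 synthesis genes were. Of the 8 genes listed, 7 had a probe and 0 of these were detected on either array: Th, the tryptophan hydroxylase genes Tph1 and Tph2, the nitric oxide synthase genes Nos1, Nos2 and Nos3, and the alkylglycerol monooxygenase gene Agmo. Nos2, the inducible synthase, had an intensity of 115 with EMF and AuNPs and 122 in control. Pcbd2, a carbinolamine dehydratase gene, was detected and differed by -0.01, and Cbr1, a carbonyl reductase gene, by 0.05. Pcbd1, the other dehydratase gene, was not detected (125 with EMF and AuNPs, 144 in control). Gchfr encodes the feedback regulator that binds GTP cyclohydrolase I. Neither of its 2 probes was detected on either array, so no difference is given. One had an intensity of 178 (detection p 0.011) with EMF and AuNPs and 142 (detection p 0.096) in control. The other had 177 (detection p 0.011) with EMF and AuNPs and 184 (detection p 0.01003) in control, just short of detection on both.

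**Figure D4:**
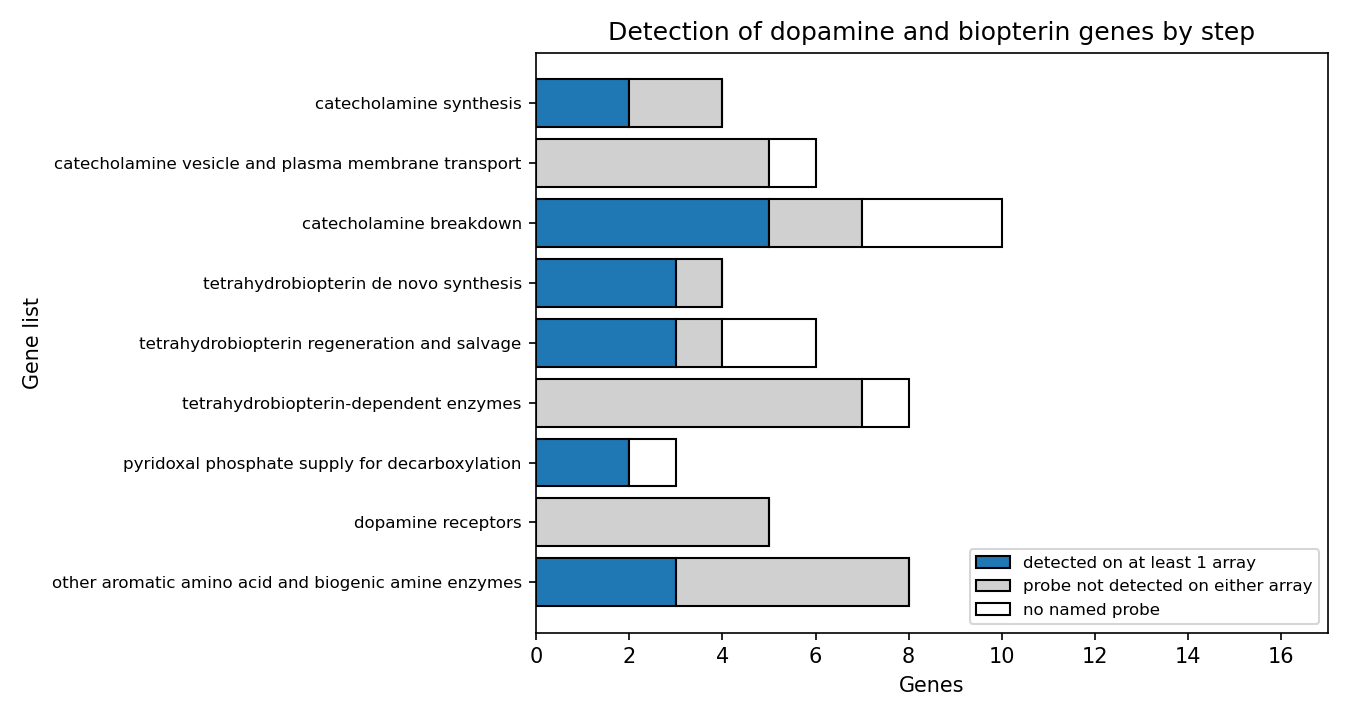
Number of genes in each list of pathway steps that were detected on at least 1 array (blue), had a probe that was not detected (grey) or had no named probe (white); a gene can stand in more than 1 list. The lists of transporters, tetrahydrobiopterin-dependent enzymes and dopamine receptors hold no detected gene.

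Of the genes of amine breakdown beyond the monoamine oxidases, 4 were detected and none passed 1.5-fold as reported. Aldh2, the mitochondrial aldehyde dehydrogenase, had an intensity of 16385 with EMF and AuNPs and 17716 in control, a difference of -0.11. Akr1a1, an aldehyde reductase gene, had 3 detected probes, which differed by -0.12, -0.13 and -0.14. Aldh1a1, a retinaldehyde dehydrogenase that also marks a subset of dopamine neurons, was detected in control alone, at 181 with EMF and AuNPs and 231 in control. With EMF and AuNPs its detection p was 0.01003, just short of detection. The bound was at least 1.47-fold lower, and at least 1.52-fold lower with median centring and with cyclic loess. Sult1a1, the remaining detected gene of this list, had 251.4 with EMF and AuNPs and 250.5 in control. Its difference was 0.16, the other way from Aldh2, Akr1a1 and Aldh1a1. From the list of other amine enzymes, Aoc3, a copper-dependent amine oxidase of the cell surface, had 746 with EMF and AuNPs and 1000 in control. Its difference of -0.39 is smaller than that of Maob. Of the pyridoxal phosphate genes, which serve the cofactor of the decarboxylase, Pdxk was detected with EMF and AuNPs alone (193 with EMF and AuNPs, 130 in control, at least 1.16-fold higher, and at least 1.73-fold higher with a detection p under 0.05 as the limit) and Pdxp differed by 0.29.

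The labelled cell type was checked against marker genes. All 12 fibroblast markers with a probe were detected, with a summed intensity of 199527 with EMF and AuNPs and 221022 in control. Their median difference was -0.15, beside 0.03 over all detected genes. The robust SD over genes detected on both arrays was 0.23, which is a spread of single genes and not of a median over 12 genes. Of the 12, 10 lay below 0 and none passed 1.5-fold by its brightest probe, although other probes differed by -1.54 for Fbln2 and by 0.66 for Col3a1. Of 12 macrophage and leukocyte markers with a probe, 11 were detected, all but Itgam, with a summed intensity of 163195 with EMF and AuNPs and 154899 in control. The detected macrophage markers had a median difference of 0.18, with 9 above 0 and 1, Cd52 at 0.80, past 1.5-fold. The 2 below 0 were Lyz2, at -0.11 by its brightest probe, and Ptprc, detected in control alone with a bound of at least 1.42-fold lower. The other Lyz2 probes, detected on both arrays, differed the other way, by 0.75 and 0.15. For neither the fibroblast nor the macrophage list was the share of all genes above or below 0 counted. The probes of Adgre1 disagreed, at 0.06 and 0.13 for a pair of bright ones and -1.39 for a dimmer one. The part of such cells in the differences of Gch1 and Maob was not tested. Of 11 neuron markers, 1 was detected, Map2, at -0.12 by its brightest probe, while its other probes were detected on neither array. Of 5 chromaffin cell markers, 1 was detected, Pnmt. No mast cell or serotonin neuron marker with a probe was detected, and of 5 astrocyte markers 2 were, Slc1a3, which differed by -0.01, and Aqp4, detected in control alone with a bound of at least 1.10-fold lower. Of 5 endothelial markers, 2 were detected, Tek at -0.26 and Emcn at -0.08.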

How the data were processed

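Biotinylated cRNA was made from total RNA with an Illumina amplification kit, per the labels' protocols, and the submitters' processing notes name GenomeStudio 2011.1. For 25697 probes the authors deposited linear intensities, not normalized between arrays, and a detection p-value beside each intensity. The deposited log2 values equalled the quantile normalized log2 intensities, with no background correction, to within 5.0e-07. No genome build is named for the array.

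The intensities were corrected and quantile normalized with neqc of limma 3.58.1 (R 4.3.3), which infers the negative controls from the detection p-values and adds an offset of 16. The annotation named 23978 probes for 1 gene and left 1719 unnamed. The brightest probe detected on at least 1 array stood for its gene (detection p under 0.01), which gave 8651 genes, 8199 of them detected on both arrays. Where detection was on 1 array alone, a bound is given: the dim side was taken as the lowest detected value of its array, or the probe's own value if higher. Robust SDs were taken in 20 bins of equal size by mean signal. With 1 array a condition, genes were counted by size and no test was made. The steps were tested on simulated arrays. All 9 genes are named with every probe. Of the 44 other genes, those past 1.5-fold were to be named, together with Slc6a3, Gchfr, Pcbd1, Nos2, Aldh2 and Dbh (others of that rule are not reported here), and any other gene was named after its values were seen. The genes and lists were chosen with earlier results of these data known. Alternatives covered background correction, normalization, offset, detection limit and probe rule.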

Additional observations from a re-analysis of the deposited data

How the results depend on the processing

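Of 118 values recomputed under 10 alternatives, 103 stayed within the robust SD of genes of like signal (for a difference) or within 1.5 times (for a count), 15 moved and 0 changed sign past 1.5-fold. These alternatives are not independent. A detection limit seldom alters a difference, and the deposited values repeat those without background correction. With the mean over all detected probes, Gch1 differed by at least 0.58 and 1 of the 9 genes passed 1.5-fold in place of 2. The pathway lists include the 9 genes, and their count of 1 in place of 2 is this same change. The second Gch1 probe, which enters as a bound, lowers the mean. With that probe at its own difference, an alternative chosen after seeing the data, the mean was 0.63, past 1.5-fold. With median centring and with cyclic loess, 1 of the 9 genes, Maob, passed 2-fold. Pts, close to 0 throughout, ran from -0.0043 to 0.059. The number of all genes past 2-fold, 87 as reported, was 48 with normexp correction, 40 without background correction, 40 in the deposited log2 values, 40 at a detection p under 0.001 and 160 with no detection filter. The number past 1.5-fold, 537 as reported, was 305, 257, 257, 285 and 917 in the same order. The last 2 settings tested fewer genes (6974) and more genes (16593), and for the other settings the cause was not tested. At a detection p under 0.001, 5 of the 9 genes were detected. No paired analysis was possible because each condition has 1 array, and for the same reason no replicate could be left out. Signal close to background limits what can be said of Th, Slc18a2, Maoa and the dimmer probes of Gch1 and Maob.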
